A study of Mus musculus with 2 samples.

Results

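Peaks on sequences that the mouse assembly does not place on a chromosome made up 870 of the 585072 deposited peaks. They were chosen by sequence name alone: names starting with chrUn (unplaced, with no chromosome known) and names ending in random (unlocalised, with the chromosome known and the position not). Library 1 held 649 of them among 584724 peaks, or 0.111% (95% exact Clopper-Pearson interval 0.103 to 0.120). Library 2 held 221 among 348, or 63.5% (58.2 to 68.6). With 1 peak counted per run within 10 kb, on every sequence and chromosome, the shares were 0.249% and 10.48%. The 221 were 38.8% of the highest peak number in the library 2 list, 570.

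The study concerns the replication-coupled histone H3.2 in the eye. Both libraries came from ChIP-seq with a GFP antibody (sc-9996) on heads of mouse embryos, snap-frozen and taken at E10.5, and both bore the same labels. No genotype, strain, sex, litter, GFP-tagged protein or control status is stated for either, so they form 1 group of 2 libraries, called here library 1 and library 2. Nothing says that they came from separate embryos, and peaks within a list are not replicates, so no test between the libraries or between sets of peaks was made. Intervals cover counting error only.

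Unplaced and unlocalised sequences are assembled pieces of the genome that could not be joined to a chromosome, often because they hold repeated or recently duplicated DNA. Reads from many genomic copies can be assigned to 1 such piece, and read depth there is then high in any library, controls included. Peak callers compare the depth of the precipitated library with a local background for that reason. Histone H3.2 is assembled into nucleosomes during DNA replication throughout the genome, repeated regions included.

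The values of each peak are those of the authors' peak caller, MACS2. Fold enrichment is the depth at the summit over the local background, and the p-value states how improbable that depth is under a Poisson distribution with this background. From both values together, the summit pileup (the number of extended reads over the summit) and the local background (the number expected there) were solved for each peak. For the genome as a whole this background was 2.71 reads in library 1, and library 2 had 1.05. The narrowest peaks were 119 bp and 51 bp wide and gave the length to which reads had been extended. As the extension lengths differ, widths are not comparable between the lists. Peaks on unplaced or unlocalised sequence had median widths of 201 bp in library 1 and 93 bp in library 2.

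Library 2 peaks lay on few of the sequences that held a peak. In all, 40 sequences held a peak: 36 in library 1, 9 in library 2 and 5 in both. Library 1 spread over 21 random and 15 chrUn sequences, whereas all but 1 of the 221 library 2 peaks lay on 8 chrUn sequences. The sequences chrUn_GL456389, chrUn_GL456390, chrUn_GL456392 and chrUn_GL456396 held 31 library 2 peaks together and none of library 1.

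**Figure D1:**
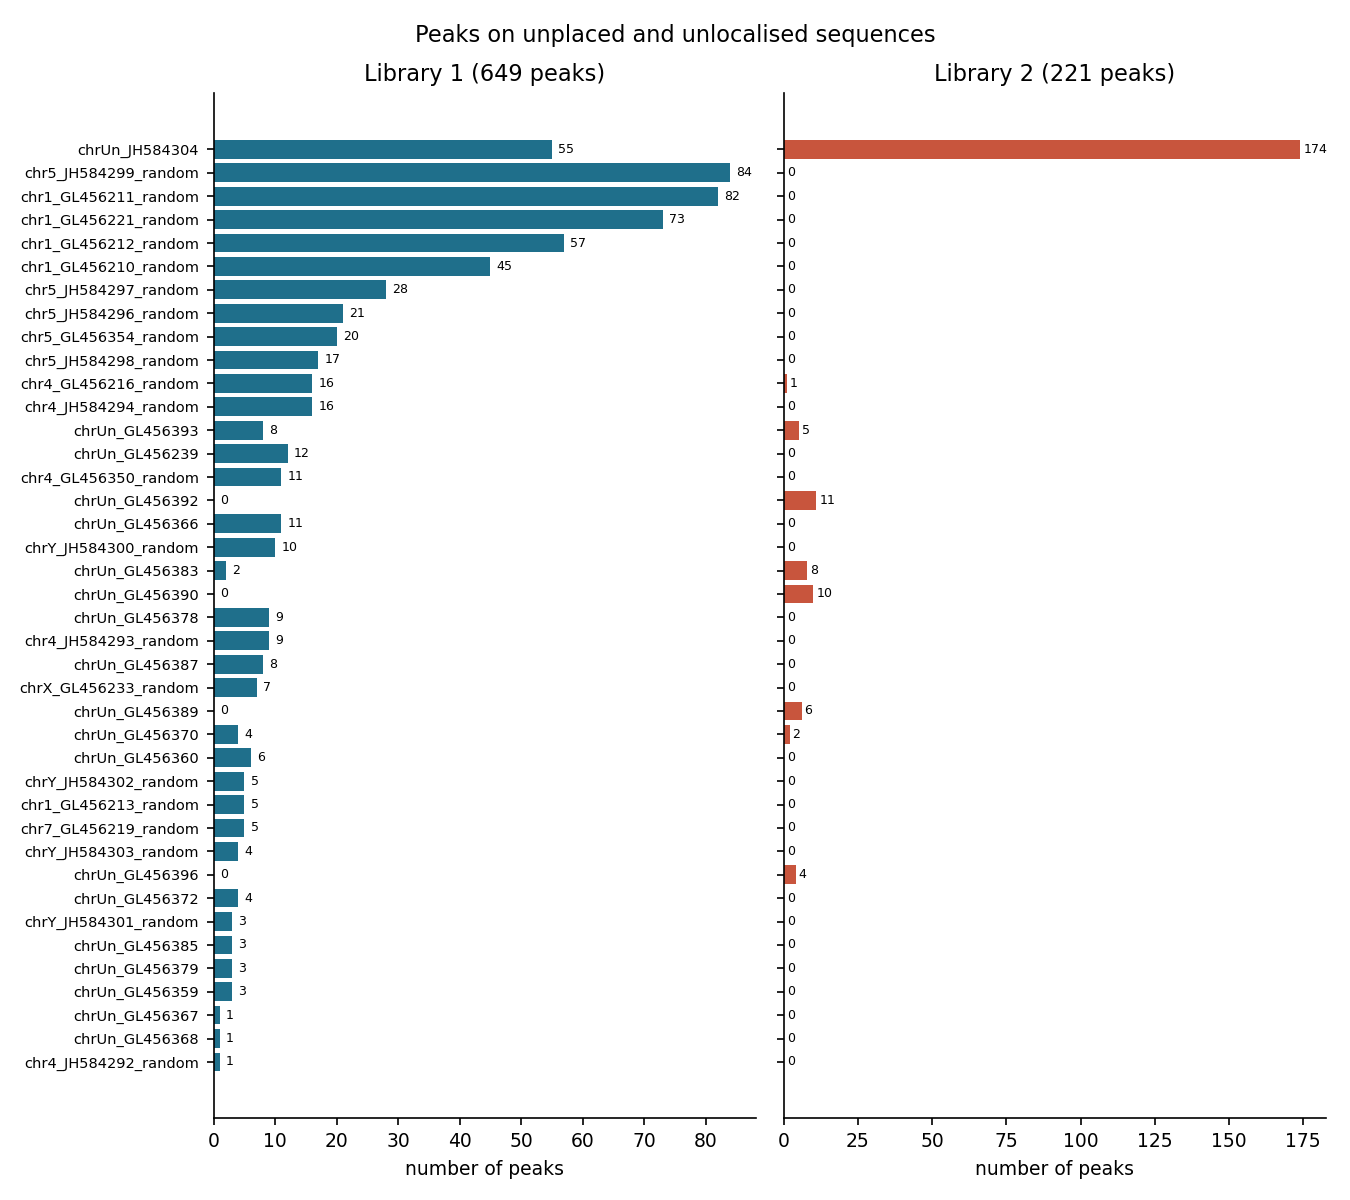
Number of peaks on each unplaced or unlocalised sequence in library 1 (left) and library 2 (right), with the count printed beside each bar and a separate scale for each library. Library 1 peaks were spread over 36 sequences, with 84 on the most populated, and 174 of 221 library 2 peaks lay on chrUn_JH584304.

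In library 1, pieces of chromosomes 1 and 5 held most peaks. The 5 random sequences of chromosome 1 held 262 peaks (40.4%), those of chromosome 5 held 170 (26.2%), those of chromosome 4 held 53 and the chrUn sequences held 130 (20.03%). The most populated sequence was chr5_JH584299_random with 84 peaks between positions 35904 and 949757. It was followed by chr1_GL456211_random with 82, chr1_GL456221_random with 73, chr1_GL456212_random with 57 and chrUn_JH584304 with 55. Of the 36 sequences, 25 held at least 5 peaks and 3 held a single peak.

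Sequence lengths were not used here, so density was taken over the stretch from position 1 to the end of the last peak, which makes each value an upper limit. On this scale the random sequences of chromosome 1 held at most 328 library 1 peaks per Mb (95% exact Poisson interval 289 to 370), and chromosome 1 itself held 197 between its first and last peak. Those of chromosome 5 held at most 102 per Mb (86.9 to 118), against 287 on chromosome 5. Those of chromosome 4 held at most 78.5 per Mb (58.8 to 103), against 270 on chromosome 4. The single piece of chromosome 7 held 5 peaks, at most 36.9 per Mb (11.97 to 86.05), against 278 on chromosome 7. The intervals of the pieces of chromosomes 4, 5 and 7 thus lay below the density of the chromosome they belong to.

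The pieces of the sex chromosomes were also sparse in library 1, like that of chromosome 7. A single X sequence, chrX_GL456233_random, held 7 peaks, at most 32.8 per Mb (13.2 to 67.6), and chromosome X held 30.7. The 4 Y sequences held 22 peaks, at most 35.7 per Mb (22.4 to 54.01), and chromosome Y held 24.8. Both intervals included the density of the whole chromosome. Folds ranged from 2.75 to 5.39 on the X piece and from 2.50 to 7.54 on the Y pieces, with medians of 3.77 and 3.50. Library 2 had no peak on any random sequence of chromosomes 1, 5, 7, X or Y. Its only random peak, at chr4_GL456216_random:49157-49242, rested on 11 reads (5.49 to 19.7) and was given a fold of 5.87.

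Away from chrUn_JH584304, the 594 library 1 peaks were close to those on chromosomes in median fold and width. Their median fold was 3.81 (range 1.80 to 11.1), beside 3.90 for the 584075 peaks on chromosomes 1 to 19, X and Y. Median widths were 195 and 201 bp. Pileups were higher, with medians of 18 and 15 reads and upper quartiles of 24 and 17. The median −log10 p was 7.49 beside 6.71. Among peaks called at the genome-wide background, the median fold was 4.04 both for the 263 on unplaced or unlocalised sequence and for the 386596 on chromosomes. Those 263 were 40.5% of all 649 and 44.3% of the 594, whereas 66.2% of chromosome peaks were called at that level.

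In library 1, most pieces of chromosome 1 stood at a raised background. On 4 of the 5, chr1_GL456210_random, chr1_GL456211_random, chr1_GL456212_random and chr1_GL456221_random, local backgrounds had medians of 1.55, 1.96, 2.22 and 1.86 genome-wide levels. Median pileups there were 19, 25, 26 and 23 reads, and median folds 3.90, 3.63, 3.50 and 4.20. On the fifth piece, chr1_GL456213_random, the background was at the genome level and the median pileup was 13. The 5 pieces of chromosome 5 were also at the genome level, with median pileups of 14 to 19 and median folds of 3.82 to 5.12. The highest of these medians belonged to chr5_GL456354_random, whose 20 peaks had folds of 2.18 to 6.46. A raised background was not limited to pieces of chromosome 1. On chrUn_GL456239, 12 peaks had a median background of 2.83 genome-wide levels and a median pileup of 30.5 reads.

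Among the library 1 peaks on unplaced or unlocalised sequence, the highest folds lay on pieces of chromosome 1 and on small chrUn sequences. On chromosomes, library 1 folds reached 16.1. The peak at chr1_GL456211_random:137067-137431 had a fold of 11.1, a −log10 p of 37.5 and a pileup of 47 reads (34.5 to 62.5). On chrUn_GL456370, the peak at 15254 to 15431 had a fold of 10.2 with 37 reads (26.1 to 51.0) at the genome-wide background. Both lay far above the upper quartile of the set, 4.82. The peaks at chr1_GL456221_random:103533-103950, chrUn_GL456378:10311-10533 and chr1_GL456221_random:206171-206375 followed with folds of 9.76, 9.11 and 9.05. Within this set, the 3 most significant and the 3 widest peaks were others, and all lay on chrUn_JH584304. Peaks on chromosomes reached a −log10 p of 78.3 and a width of 8736 bp.

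**Figure D2:**
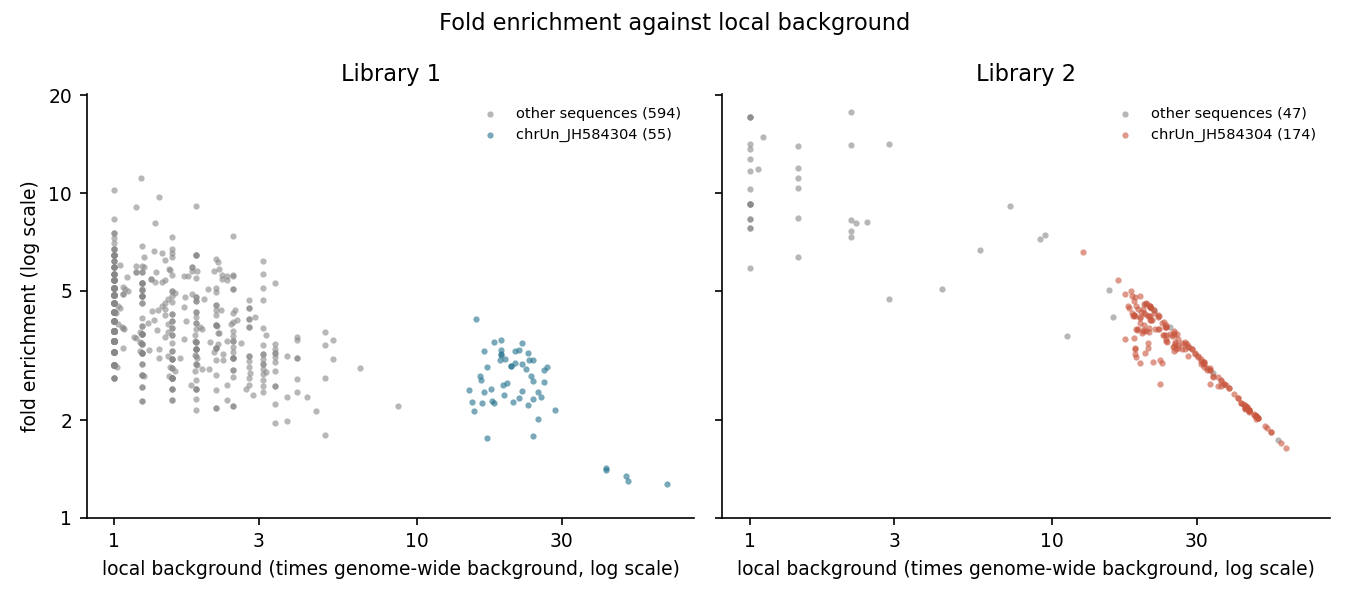
Fold enrichment (vertical, log scale) against local background in multiples of the genome-wide level (horizontal, log scale), 1 point per peak, with chrUn_JH584304 in colour. Peaks of chrUn_JH584304 stood at 14.9 to 66.8 times the genome-wide background in library 1 and at 12.6 to 59.2 times in library 2, with folds of at most 4.10 and 6.57.

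The sequence chrUn_JH584304 stood apart from the other unplaced and unlocalised sequences in library 1, whereas in library 2 the ranges overlapped. Backgrounds of the other 47 library 2 peaks had a median of 1.44 genome-wide levels and reached 55.6. Those on chrUn_JH584304 had a median of 25.3 (12.6 to 59.2). In library 1, all of its 55 peaks had a local background over 10 times that of the genome, and no other unplaced or unlocalised peak did. Over the whole library 1 list 0.0127% of peaks were at such a background, that is 74 peaks, of which 19 lay on chromosomes. Those 19 had a median fold of 2.76, a median −log10 p of 20.1 and a median pileup of 107 reads (54 to 197). The median pileup on chrUn_JH584304 was 165 reads (82 to 231), and elsewhere in the set it was 18 (9 to 57), so these ranges did not overlap. The median fold was 2.63, below the 3.81 of the other members, while the median −log10 p was 22.9 against 7.49.

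Its strongest library 1 peaks therefore combined moderate folds with very small p-values. The peak at chrUn_JH584304:19114-19500 had a −log10 p of 53.7, a fold of 4.10 and 178 reads (153 to 206). Peaks at 26857 to 27213 and 37238 to 37563 followed with −log10 p of 51.1 and 45.9, folds of 3.45 and 3.52, and 211 and 183 reads. The widest peaks, 1620, 1592 and 1447 bp, lay at 39219 to 40838, 33883 to 35474 and 54353 to 55799. Between positions 47148 and 60175, 13 peaks followed each other with gaps under 1 kb, the longest such run of library 1 on these sequences.

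Library 2 occupied the other end of the same sequence. Its 174 peaks lay without a larger break between positions 68565 and 114420, a stretch of 45.9 kb of which they covered 50.7%. The gaps between neighbours had a median of 100 bp (51 to 637). Library 1 had 50 of its 55 peaks before this stretch, between positions 2338 and 65880, and library 2 had none there. Its other 5 peaks lay inside the stretch, with folds of 1.27 to 1.42 and a −log10 p of 3.49 to 5.16. The background of those 5 was 42.1 to 66.8 times the genome-wide level, and it was 14.9 to 28.5 times for the 50 before.

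**Figure D3:**
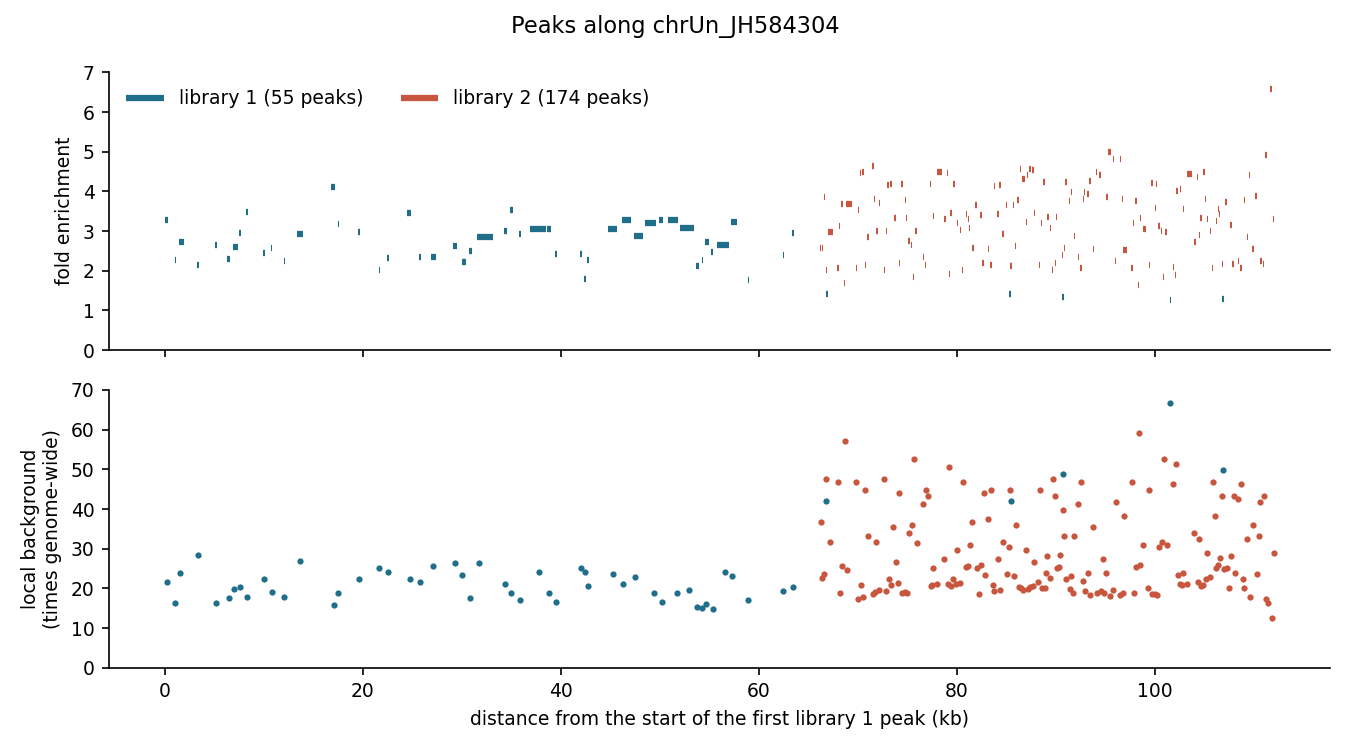
Peaks along chrUn_JH584304 by distance in kb from the start of the first library 1 peak: fold enrichment with bars as wide as the peaks (top) and local background in multiples of the genome-wide level at the summit (bottom). The 174 library 2 peaks began where all but 5 of the 55 library 1 peaks had ended.

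Within the library 2 stretch, folds ran from 1.64 to 6.57 with a median of 3.36 and quartiles of 2.58 and 3.99. Pileups ran from 63 to 102 reads with a median of 99, and 49 of the 174 stood at 102, the highest pileup of the list. Backgrounds ran from 13.2 to 61.9 reads with a median of 26.4. The highest fold belonged to the peak at chrUn_JH584304:113979-114223, near the far end of the stretch, with 92 reads (74.2 to 113) against the lowest background of all 174. The widest were 573, 572 and 554 bp, at 71185 to 71757, 69310 to 69881 and 105569 to 106122, with folds of 3.68, 2.98 and 4.44.

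Many library 2 peaks shared 1 maximal pileup. Of its 221 peaks on these sequences, 52 (23.5%, 18.1 to 29.7) had a pileup of exactly 102 reads, and none had more. These 52 lay on chrUn_JH584304 (49 peaks), chrUn_GL456392 (2) and chrUn_GL456396 (1). On chromosomes, 8 of 127 peaks (6.30%) had 102 reads, and none had more. The number 102 is 2 times the extension length of 51 bp, the largest pileup possible if no more than 1 read per position and strand is kept. Whether such a limit was set is not given in the sources used here. At least 90% of that number was reached by 136 of the 221 peaks (61.5%, 54.8 to 68.0), beside 42.5% over the whole library 2 list and 12 of 127 (9.45%) on chromosomes.

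At a pileup of 102 the fold follows from the background alone. The folds of these 52 peaks ran from 1.64 to 4.82 as the background fell from 59.2 times the genome-wide level. Over all 221 library 2 peaks, Spearman's rho between background and fold was −0.93, and it was −0.39 over the 649 of library 1. Without chrUn_JH584304 the values were −0.63 over 47 peaks and −0.25 over 594. All 4 are descriptions across peaks, and the fold contains the background by its definition. In library 1 the corresponding limit is 238 reads. Pileups reached 231 there, and 2 of the 649 peaks, both on chrUn_JH584304, were at 90% or more of it, beside 0.000342% of the whole list.

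**Figure D4:**
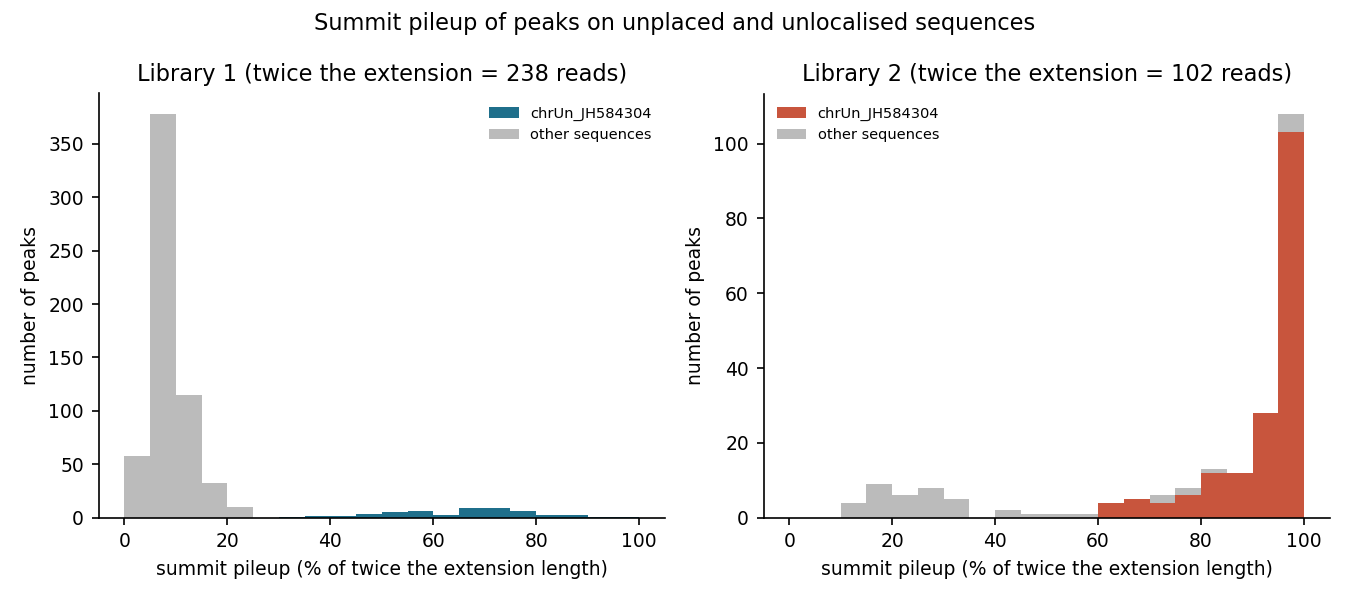
Histograms of summit pileup as a percentage of 2 times the extension length (238 reads in library 1, 102 reads in library 2), with chrUn_JH584304 in colour and the other sequences in grey. Library 2 peaks gathered in the last bins, with 136 of 221 at 90% or more, and library 1 peaks outside chrUn_JH584304 had at most 57 reads.

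The control depth at the summits was high as well. Where the local background was set at the summit itself, it was a whole multiple of 0.755 reads in library 2 and of 0.839 in library 1, which gives the number of control reads there. On chrUn_JH584304 this held for 95 library 2 peaks, with 27 to 82 control reads and a median of 47. It held for 42 library 1 peaks, with 52 to 92 control reads in the part before position 68565 and 136 to 216 in the part shared with library 2. The labels do not say which library served as control. A background over 10 times that of the genome was found for 182 of the 221 library 2 peaks (82.4%, 76.7 to 87.1), beside 58.6% over the whole library 2 list. The 182 comprised all 174 on chrUn_JH584304 and 8 of the other 47.

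Peak positions on chrUn_JH584304 recurred at a fixed distance in library 2. Among the 15051 pairs of its 174 summits, 31 were 25245 to 25250 bp apart, the most of any window of 6 bp. The next window outside 20 bp of it, at 1857 to 1862 bp, held 18, and the median window between 20 and 30 kb held 1. Measured between peak starts or peak middles, the same distance within 1 bp was again the most frequent, with 27 and 26 pairs. The next windows were then at 9118 to 9123 bp and 9119 to 9124 bp, with 20 and 19 pairs.

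At the median, the peaks paired by this distance were also closer in size than all pairs of the stretch. Of 75 peaks with room for a partner at 25240 to 25255 bp, 44 (58.7%) had one, and they lay between 70289 and 87880 with partners between 95548 and 113132. Partners differed by a median of 0.26 in fold and 6 bp in width, whereas all pairs of the stretch differed by 0.87 and 58 bp. As an example, the peak at 80322 to 80874 was 553 bp wide with a fold of 4.48, and its partner at 105569 to 106122 was 554 bp wide with a fold of 4.44. The peaks at 76681 to 76897 and 101927 to 102142 had folds of 4.18 and 4.21, widths of 217 and 216 bp, and 85 reads each. Not all partners were alike. Folds were 4.15 and 1.64 for the partners at 75347 to 75508 and 100653 to 100769. Widths were 177 and 56 bp for those at 83899 to 84075 and 109149 to 109204. The distance was chosen after the positions were seen. In library 1 no window of 6 bp held more than 4 of the 1485 pairs of summits on this sequence. Only 5 library 1 peaks lay within the library 2 stretch, so library 1 cannot show whether the distance recurs there.

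**Figure D5:**
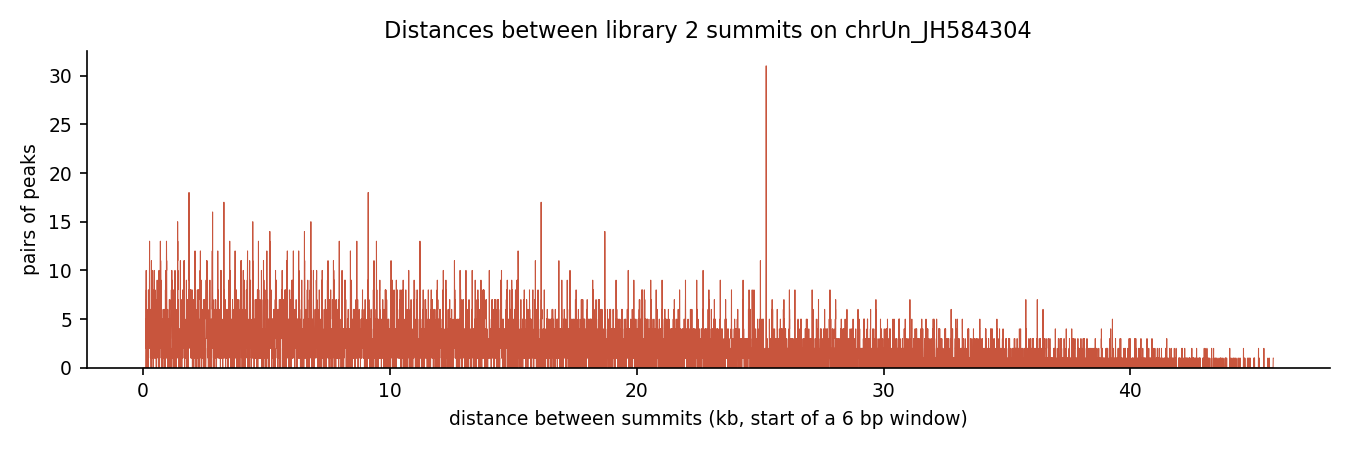
Number of pairs of library 2 summits on chrUn_JH584304 (vertical) at each distance (horizontal, kb), counted in windows of 6 bp. The highest spike, of 31 pairs, stands at 25.2 kb, and the next highest window outside 20 bp of it holds 18.

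At the median, the other 47 library 2 peaks differed from those of chrUn_JH584304. Their median fold was 8.31 (1.74 to 17.8), near the 9.10 of the 127 chromosome peaks, and their median pileup was 27 reads, near 32 on chromosomes. Their median width was 62 bp, beside 117 bp on chrUn_JH584304 and 60 bp on chromosomes. At the genome-wide background, 17 of them had a median fold of 9.29, and 45 chromosome peaks had 10.8. Without chrUn_JH584304, unplaced and unlocalised peaks were 27.0% of library 2.

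The highest folds among these peaks lay on 4 small chrUn sequences. On chrUn_GL456383, the peak at 31891 to 31968 had the highest fold, 17.8, with a −log10 p of 58.8 and 57 reads (43.2 to 73.9) over 3 control reads. The peaks at chrUn_GL456390:7024-7085, chrUn_GL456393:9860-10010 and chrUn_GL456396:9850-9933 shared a fold of 17.1, each with 34 reads (23.5 to 47.5) at the genome-wide background. A fold of 14.9 belonged to a second peak of chrUn_GL456383, at 27545 to 27618. By p-value, the peaks at chrUn_GL456390:19485-19578 and chrUn_GL456392:23454-23546 came next, with −log10 p of 50.5 and 49.8 and folds of 14.2 and 9.13.

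Fold ranges of the small sequences overlapped in library 2. The 8 peaks of chrUn_GL456383, at 2083 to 34524, had folds of 4.73 to 17.8, and the 10 of chrUn_GL456390 had 6.38 to 17.1. The 6 peaks of chrUn_GL456389 ranged from 2.80 to 13.9 and the 4 of chrUn_GL456396 from 4.36 to 17.1. On chrUn_GL456393, 5 peaks had folds of 7.82 to 17.1, and on chrUn_GL456370, 2 peaks had 8.07 and 9.29. Of the 11 peaks of chrUn_GL456392, 9 formed a run at 21285 to 23546, with a median background of 11.2 genome-wide levels, and its folds ran from 1.74 to 9.13. That median was below the lowest background of the 174 peaks on chrUn_JH584304, 12.6 genome-wide levels. Single peaks of chrUn_GL456392 reached 55.6 levels, so the ranges of the 2 sequences overlapped. Of the other small sequences, chrUn_GL456389 had 2 peaks over 10 times the genome-wide level and chrUn_GL456396 had 1, although median backgrounds of these sequences were 1 to 2.166 times that level.

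Dense runs at a high background also occurred on chromosomes in library 2. At chr14:19415737-19419663, 16 peaks had a median background of 32.5 times the genome-wide level, a median pileup of 101.5 reads and a median fold of 2.95. Counted over all such peaks, the 22 on chromosomes with a background over 10 times that of the genome had a median fold of 2.95 and a median pileup of 98.5 reads. The 182 on unplaced or unlocalised sequence had 3.40 and 99. Runs of at least 3 peaks with gaps up to 1 kb held 189 of the 221 peaks (85.5%, 80.2 to 89.9) and 25 of 127 on chromosomes (19.7%). In library 1 these shares were 25.7% (22.4 to 29.3) and 39.03%.

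Almost none of these peaks were shared between the libraries. By at least 1 bp, 8 of the 221 library 2 peaks (3.62%, 1.58 to 7.01) touched a library 1 peak, beside 4.89% over the whole library 2 list. They touched 4 of the 649 library 1 peaks (0.616%, 0.168 to 1.57), beside 0.00222% (13 peaks) over the far longer list of library 1. All of these lay on chrUn_JH584304, although 85 library 1 peaks and 190 library 2 peaks lay on sequences used by both libraries. In library 2 the share of these peaks was thus near that of the list they belong to, of which they made up 63.5% themselves.

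Each of the 4 shared places joined 1 weak library 1 peak to a pair of library 2 peaks. The library 1 peaks lay at 69148 to 69330, 87609 to 87817, 93025 to 93226 and 109150 to 109391, with folds of 1.41, 1.42, 1.35 and 1.30. The 8 library 2 peaks there had folds of 2.03 to 3.64 and 91 to 102 reads. At the first place, the library 2 peaks at 69128 to 69212 and 69310 to 69881 overlapped the edges of the library 1 peak, with folds of 2.03 and 2.98. The peaks at 87607 to 87672 and 87738 to 87880 had 3.15 and 2.11, those at 93017 to 93083 and 93192 to 93251 had 2.40 and 2.58, and those at 109149 to 109204 and 109313 to 109385 had 2.16 and 3.64. At all 4 places the library 1 peak stood over 136 to 161 control reads.

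By the authors' q-value, library 1 peaks on these sequences passed a fixed threshold more often than the list as a whole, and library 2 peaks about as often. A −log10 q of at least 5 was reached by 358 of the 649 library 1 peaks (55.2%, 51.2 to 59.03), beside 41% over the whole list, and by 49 of the 55 on chrUn_JH584304. Of the other 594, 309 (52.02%, 47.9 to 56.1) reached it. In library 2, 212 of 221 did (95.9%, 92.4 to 98.1), beside 95.1% over the list.

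No gene was assigned to these peaks. The RefSeq gene table of the same assembly lists 17 genes on unplaced sequence, 13 pseudogenes and 4 long non-coding RNA genes, without naming the sequence that holds them. The positions and folds above therefore carry no annotation of exons, introns or repeats.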

How the data were processed

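Peak lists of 2 ChIP-seq libraries were analysed, 1 deposited list per library. Per the submitters' processing notes, the tools included MACS2 2.1.0, Bowtie 1.1.2, Trimmomatic 0.33 and bcl2fastq 2.17, and the builds mm10 and hg38. Settings are not given in the sources used here. All sequence names are those of mm10, and positions count from 1. Deposited for each peak, as the authors' caller computed them, are the −log10 q-value, a whole-number score of 10 times its size, the −log10 p-value, and fold enrichment (a ratio).

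Pileup n and background b were solved from fold = (n + 1)/(b + 1) and the Poisson tail above n, allowing a mismatch of 0.002 in −log10 p. Whole pileups were found for 100% of peaks, and for 100% of 3000 simulated peaks per library. The simulated peaks were made with the same formulas, so they check the solving only and not whether the caller used these formulas. The window that set the background was recovered for 97.97% and 96.3% of simulated peaks, and for 100% of those set at the summit. The most frequent background was taken as genome-wide. Control steps assumed the caller's windows of 1 kb and 10 kb. Total read depth was not used. Python 3.11.15, SciPy 1.17.1 and pandas 2.3.3 were used.

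Sequences with at least 5 peaks in library 1 or 3 in library 2 were named or counted, at most 10 with full values. Named per library were the peaks with the 5 highest folds and the 3 highest −log10 p, the 3 widest and all shared ones. The members and these rules were chosen with earlier results of these data known. Alternatives varied the q threshold, run and overlap distances, sequences counted, weighting and background threshold.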

Additional observations from a re-analysis of the deposited data

How the results depend on the processing

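Of 60 alternative values, 25 stayed within the 95% interval of the reported value or, for counts of pairs, near it, and the other 35 follow. No alternative leaves out a library, since each list is described alone, and no paired analysis was possible because there is 1 group. In library 1, the share of peaks on unplaced or unlocalised sequence (0.111%) was 0.149% with −log10 q of at least 5, 0.249% with 1 peak per run within 10 kb, 0.0966% without chr5_JH584299_random, 0.0222% for chrUn alone and 0.0888% for random alone. With −log10 q of at least 5, which selects on depth by construction, its medians were a fold of 4.59, a −log10 p of 11.1, a width of 227.5 bp, a pileup of 24 and a background of 4.04. At the genome-wide background the median fold was 4.04. Without chr5_JH584299_random the median pileup was 20 and the background 4.08. The median over sequences was 6.51 for −log10 p, 15 for pileup and 2.71 for background. Backgrounds over 20 times the genome-wide level were 4.78%. Runs held 0.924% at gaps up to 200 bp and 80.3% up to 10 kb.

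In library 2, the share (63.5%) was 10.48% with 1 peak per run, 73.1% by covered bases, 27.01% without chrUn_JH584304, 0.287% for random alone and 38.8% of the highest peak number. The median fold (3.67) was 8.31 without chrUn_JH584304, 10.02 over sequences and 9.29 at the genome-wide background. Without chrUn_JH584304 and over sequences, the median width was 62 and 64 bp, the pileup 27 and 30.5, and the background 1.51 and 1.65. Backgrounds over 20 times were 65.6%, and runs with gaps up to 10 kb held 98.2%. Counting 1 peak per run collapsed the runs of every sequence, and leaving out chrUn_JH584304 removed 174 peaks. For the other shifts the cause was not tested. The denominators by peak number, the fold at the genome-wide background and the pairs by peak start or middle were chosen after seeing the data. Library 2 pileups at 102 reads limit how far its folds there can be read.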

Other observations

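No peak number was missing between neighbouring peaks of the same unplaced or unlocalised sequence. The numbers run to 570 in library 2 and 222 are missing from its list, of which 0 fall within these sequences, 3 at their borders, where the side they belong to is not known, and 219 elsewhere, 122 of them in a single gap between chromosomes 8 and 9. In library 1, 2806 numbers up to 587530 are missing, and 0 of them fall within or at the borders of these sequences. The peaks behind the missing numbers were not analysed here.

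Over the 649 library 1 peaks, Spearman's rho between width and −log10 p was 0.44, and it was 0.41 without chrUn_JH584304. Over the 221 library 2 peaks it was 0.09, and 0.42 over the 47 outside chrUn_JH584304. Peaks of a sequence share their library and background, so these are descriptions only.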
